A study of Mus musculus with 6 samples.

Results

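The mitochondrial ribosomal proteins are described here through the transcripts of 76 nuclear genes, of 25955 entries in the deposited expression table. They were chosen by name alone, as entries whose symbol begins with Mrpl or Mrps and a number. Of 80 such entries, 4 pseudogenes were left out, and no symbol occurred more than once. The symbols begin with Mrpl in 47 genes and with Mrps in 29. All 76 were above the limit for testing, an RPKM of at least 1 in at least 3 of the 6 libraries. RPKM counts a gene's reads relative to gene length and library size.

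Mitochondria hold their own ribosomes, which translate the few proteins encoded by mitochondrial DNA, all of them subunits of the respiratory chain and ATP synthase. The ribosomal RNA is made inside the organelle, while every ribosomal protein is encoded in the nucleus, made in the cytosol and imported. The large subunit joins amino acids and holds the exit tunnel, and the small subunit binds the messenger RNA and reads its codons. Some of the proteins descend from bacterial ribosomal proteins, and others are found only in mitochondria. In bone marrow, red cell precursors are known to need mitochondria to make haem and to lose them on maturing.

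The study sorted cells from enzymatically dissociated bone marrow of C57BL/6 mice and measured total RNA in bulk, with 3 libraries of CD51+ cells and 3 of CD44+CD51- cells, each set bearing the numbers 1, 2 and 3. The antigen CD51 is integrin alpha V, the product of Itgav, and CD44 is a hyaluronan receptor. The series title speaks of stromal and hematopoietic cells, and all 6 samples carry the label TNCs, which is not spelled out. The sources used here do not give age, sex, the number of animals or any pooling, so a p-value speaks only of the spread between libraries, which may be technical.

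Itgav stood at 5.37, 9.81 and 5.86 RPKM in CD51+ libraries, against 0.564, 0.957 and 0.510 RPKM in CD44+CD51- libraries, and its product was used to part the groups. Depth, as read from the smallest RPKM steps, was 12172118 to 32453010 reads in CD51+ libraries and 19292572 to 25584190 reads in CD44+CD51- libraries. At that depth the least covered value of any of the 76 genes rested on about 156 reads. The libraries numbered 1 stood apart from the other 4 in both groups, and same-numbered libraries deviated together, most clearly those numbered 1. Calls are therefore also given with the replicate number as a term in the fit (the replicate block) where that changes them. The labels state no pairing, and CD51+ library 2 deviated slightly more with CD44+CD51- library 3 than with library 2. CD44+CD51- library 2 held more stromal, myeloid and early B transcripts than its group. Its 10 stromal markers summed to 43.8 RPKM, against 7.24 and 10.5 RPKM in libraries 3 and 1. Its myeloid markers summed to 21956 RPKM, against 7979 and 4679 RPKM in libraries 3 and 1. For early B markers the sums were 969 RPKM, against 573 and 312 RPKM.

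Transcripts of the mitochondrial ribosome were lower in CD51+ cells than in CD44+CD51- cells across nearly the whole set. Of the 76 genes, 45 were lower and 0 higher at an adjusted p under 0.05 (limma), or 59.2% lower, where 29.7% of the 11741 genes tested were lower and 24.1% higher. At an unadjusted p under 0.05, 55 were lower and 0 higher, and the share of all genes at an unadjusted p was not computed. The replicate block gave 71 lower and 0 higher by the same test, or 93.4%, against a background of 41.3% lower and 27.8% higher. All 45 genes called without the block were called with it. With the filter raised to an RPKM of at least 5, 7938 genes were tested. There 46 of the 76 were lower and 0 higher by limma, or 60.5% lower, against a background of 37.4% lower and 20.3% higher.

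Log2 changes are differences of mean log2(RPKM + 1), with CD44+CD51- taken from CD51+. Their median was -0.74 over the 76 genes, -0.23 over all genes tested and -0.37 over those passing the filter at RPKM 5. Quartiles of the 76 were -0.83 and -0.58, and single genes ran from -1.22 to 0.32. Of all genes tested, 19.5% lay below the median of the 76. The log2 change was negative in 74 genes and positive in Mrpl33 and Mrps6. In 57 genes, or 75%, all 3 CD51+ values lay below all 3 CD44+CD51- values, where the background is 37.5%. In 0 genes did all 3 lie above, where the background is 26.1%, and in 19 the groups overlapped.

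**Figure D1:**
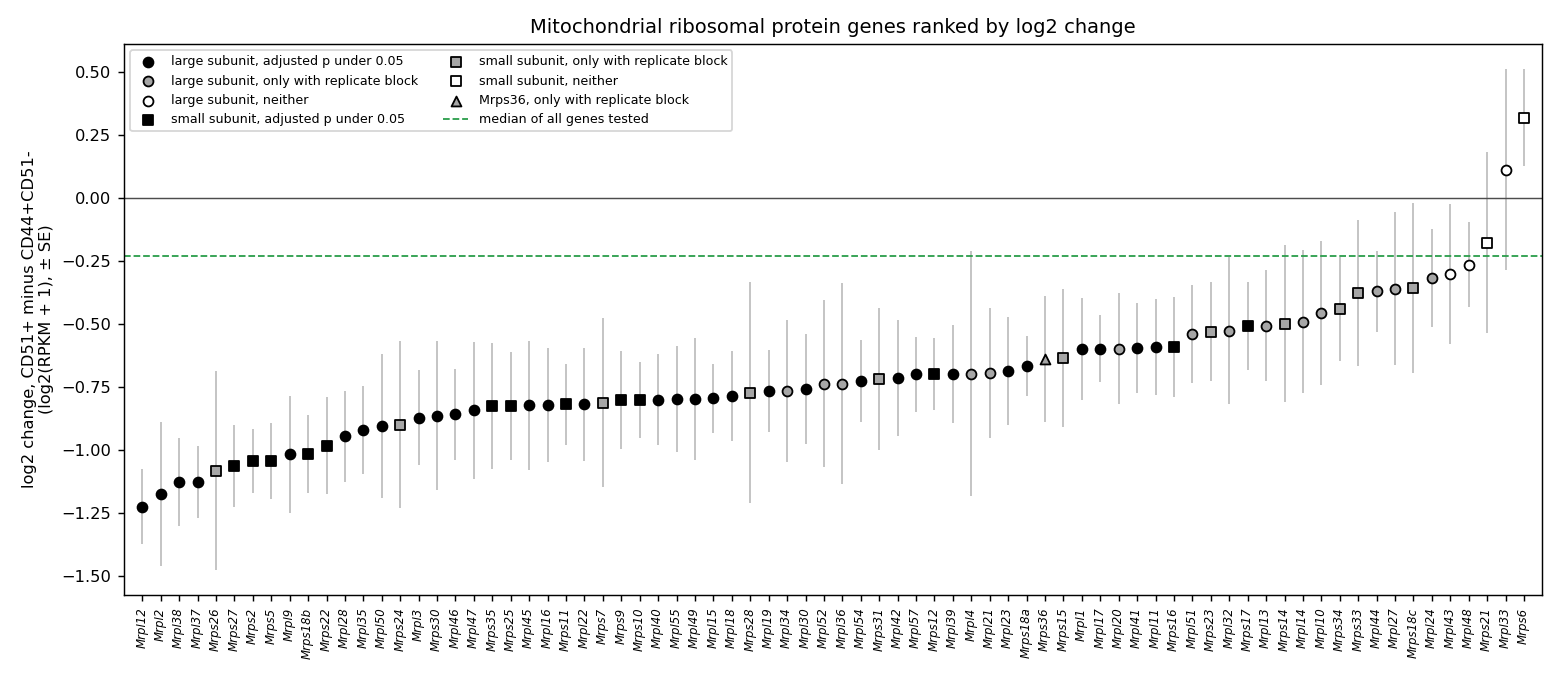
The 76 genes in order of log2 change (y axis, mean log2(RPKM + 1) of CD51+ less that of CD44+CD51-), with the standard error as a bar. Fill marks an adjusted p under 0.05 from limma without the replicate block (black), with it only (grey) or in neither (white), and shape marks the subunit. All but Mrpl33 and Mrps6 lie below 0, and 71 are called with the block.

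Added over the 76 genes, the RPKM came to 3327, 3815 and 4136 in CD51+ libraries, against 6498, 6059 and 6022 in CD44+CD51- libraries. The groups did not overlap, and the ratio of their means was 0.607. These sums were 0.564%, 0.626% and 0.672% of all RPKM in CD51+ libraries, against 1.34%, 1.17% and 1.33% in CD44+CD51- libraries. In bulk RNA, fewer cells that make these transcripts and less of them per cell cannot be told apart. The size of the difference depended on the scale. The median log2 change of all genes moved to -0.50 with the libraries set to equal summed RPKM, to -0.07 under median-of-ratios scaling and to -0.35 under quantile normalization. The median of the 76 genes minus that of all genes was -0.51 as deposited, and -0.56, -0.47 and -0.24 under those 3 scalings. All 3 kept the log2 change negative in 73 of the 76 genes, the exceptions being Mrps21, Mrpl33 and Mrps6.

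The counts of calls moved with the scale and with single libraries. With equal summed RPKM 66 genes were lower and 0 higher by limma, against backgrounds of 46.6% and 20.8%, and with the block 74 and 0 (56.8% and 23.3%). Median-of-ratios scaling gave 34 lower and 1 higher (backgrounds 21.6% and 27.0%), and with the block 65 and 1 (33.5% and 31.8%). Quantile normalization gave 36 and 1 (38.3% and 22.1%), and with the block 69 and 1 (50.3% and 25.5%). The share of the 76 that was lower under quantile normalization without the block, 47.4%, was thus not far above its background. Without CD51+ replicate 1, 2 or 3 the count lower was 40, 29 or 47, where the backgrounds are 26.6%, 21.9% and 26.2%. Without CD44+CD51- replicate 1, 2 or 3 it was 43, 31 or 29 (27.1%, 21.9% and 21.7%). The gene called higher was Mrps6 in each case, also without CD51+ replicate 1, where the background higher is 23.9%.

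The promoters of these genes are known for sites of NRF1, of ETS factors such as GABPA, and of YY1, which drive nuclear genes of mitochondrial function. RefSeq promoter sequences (GRCm38.p6, 250 bases before to 50 after the start site) were matched for 67 of the 76 genes. The NRF1 motif (GCGCA, any base, then GCGC), searched on both strands like the others, was in 13 of the 67, or 19.4%, against 12.01% of 8641 genes tested with a promoter and 5.19% of all 27025. The ETS motif CCGGAAG was in 24, or 35.8%, against 20.9% and 9.93%. The YY1 motif AANATGGCG was in 10, or 14.9%, against 6.41% and 2.76%. At least 1 of the 3 was in 40 of the 67, or 59.7%, against 34.1% and 15.9%. A match shows letters only and is not a measured binding site, and matches of different motifs may overlap by a few bases.

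The stretches below run from 100 bases before to the 30th base from the RefSeq start site, all on the plus strand. They are shown for genes of large decrease with a motif (Mrpl12, Mrpl9, Mrps27), for Mrps18a, and for Mrpl33 and Mrps6, whose log2 change was positive. Capitals mark the motif matches, and positions count from the start site as 1, with -1 for the base before it.
Mrpl12: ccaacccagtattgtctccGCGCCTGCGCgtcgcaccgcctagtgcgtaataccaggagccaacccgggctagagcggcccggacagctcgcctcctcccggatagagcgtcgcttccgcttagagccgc
Mrpl9: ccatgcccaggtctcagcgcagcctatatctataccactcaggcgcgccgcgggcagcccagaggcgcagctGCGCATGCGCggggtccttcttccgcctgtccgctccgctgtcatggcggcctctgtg
Mrps27: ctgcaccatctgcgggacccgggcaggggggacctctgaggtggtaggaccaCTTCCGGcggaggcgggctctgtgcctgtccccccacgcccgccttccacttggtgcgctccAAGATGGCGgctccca
Mrps18a: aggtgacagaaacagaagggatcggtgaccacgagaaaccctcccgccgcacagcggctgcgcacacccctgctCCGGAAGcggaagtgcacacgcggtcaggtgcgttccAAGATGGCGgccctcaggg
Mrpl33: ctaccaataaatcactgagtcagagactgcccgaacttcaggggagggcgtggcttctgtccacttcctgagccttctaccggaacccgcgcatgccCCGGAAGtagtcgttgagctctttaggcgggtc
Mrps6: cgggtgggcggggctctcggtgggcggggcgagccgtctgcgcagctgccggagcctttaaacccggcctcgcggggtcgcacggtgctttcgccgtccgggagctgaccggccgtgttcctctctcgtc
Mrpl12 (chr11:120484537-120484666) and Mrpl9 (chr3:94443236-94443365) hold an NRF1 match that begins at -81 and -28. Mrps27 (chr13:99344686-99344815) and Mrps18a (chr17:46110904-46111033) share an arrangement, an ETS match upstream, at -48 and -26, and a YY1 match just after the start, at 15 and 12. Mrpl33 (chr5:31613851-31613980) holds an ETS match at -3, and its RefSeq start, at base 31613951, lies downstream of the first GENCODE start of the gene, at 31596935. Mrps6 (chr16:92058236-92058365) had none of the 3 motifs in its window. Between genes with and without a motif, medians differed by little beside the range of single genes. The median log2 change was -0.70 in 13 genes with the NRF1 motif and -0.74 in 54 without. It was -0.68 in 24 genes with the ETS motif and -0.80 in 43 without, and -0.84 in 10 with the YY1 motif and -0.70 in 57 without.

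The large subunit is made by 49 of the 76 genes, counting Mrps18a and Mrps30, whose products sit in the large subunit despite their names. Of these, 32 were lower and 0 higher, where 29.7% of all genes tested were lower and 24.1% higher. Under the replicate block 46 fell and 0 rose (backgrounds 41.3% and 27.8%). The median log2 change was -0.74. The 29 with a bacterial counterpart (17 lower, 28 with the block, median -0.74) and the 20 particular to mitochondria (15 lower, 18 with the block, median -0.73) had similar medians. Which class had the larger share called thus turned with the block.

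Mrpl12, the stalk protein that recruits translation factors and is also known to bind the mitochondrial RNA polymerase, fell furthest. It had 42.6, 49.8 and 56.2 RPKM in CD51+ libraries, against 111, 118 and 121 RPKM in CD44+CD51- libraries. The groups lay far apart, with every CD44+CD51- library at about the same level. The log2 change of -1.22 ± 0.15 (SE) had an adjusted p of 0.000729, and it passed the test in all 20 alternatives. The gene lies at chr11:120484613-120489065 on the plus strand.

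Mrpl2, a core protein close to the site where peptide bonds form, had 93.5, 68.4 and 73.8 RPKM in CD51+ libraries, against 273, 147 and 138 RPKM in CD44+CD51- libraries. Library 1 was the highest of both groups, and the groups did not overlap. The log2 change was -1.17 ± 0.29 (adjusted p = 0.0123, or 0.000527 with the replicate block, which takes that shared deviation out). Mrpl9, related to a bacterial protein near a stalk of the large subunit, had 9.49, 15.5 and 17.5 RPKM in CD51+ libraries, against 25.2, 31.2 and 30.5 RPKM in CD44+CD51- libraries. Here library 1 was the lowest of both groups, and the log2 change was -1.02 (adjusted p = 0.00963).

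A pair of proteins particular to mitochondria fell about as far. Mrpl38, of the central protuberance, had 29.5, 24.8 and 26.9 RPKM in CD51+ libraries, against 75.2, 54.5 and 53.1 RPKM in CD44+CD51- libraries (log2 change -1.13, adjusted p = 0.00198). Mrpl37 had 21.9, 21.0 and 21.4 RPKM in CD51+ libraries, against 56.1, 45.0 and 43.6 RPKM in CD44+CD51- libraries (log2 change -1.13, adjusted p = 0.000882). The CD51+ libraries agreed closely in Mrpl37, with a mean of 21.4 ± 0.470, against 48.2 ± 6.88 in CD44+CD51- libraries (SD, n = 3 each).

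The most abundant transcripts per length belonged mostly to the large subunit. Mrpl36, a very small protein of the large subunit, had 351, 165 and 191 RPKM in CD51+ libraries, against 616, 285 and 294 RPKM in CD44+CD51- libraries. The groups overlapped, because both libraries numbered 1 were far above the rest, although each CD51+ library was below the CD44+CD51- library of its number. At a log2 change of -0.74, the adjusted p was 0.159, and 0.00278 with the replicate block. Mrpl28 had 153, 123 and 149 RPKM in CD51+ libraries, against 320, 261 and 242 RPKM in CD44+CD51- libraries, and fell (log2 change -0.95, adjusted p = 0.00449). Mrpl42, particular to mitochondria, averaged 175 ± 41.8 RPKM in CD51+ libraries and 284 ± 37.7 RPKM in CD44+CD51- libraries (adjusted p = 0.0349). Mrpl34, among the smallest bacterial-type proteins, averaged 149 ± 46.0 RPKM in CD51+ libraries and 247 ± 43.4 RPKM in CD44+CD51- libraries, with an adjusted p of 0.0541, or 0.00266 with the block.

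**Figure D2:**
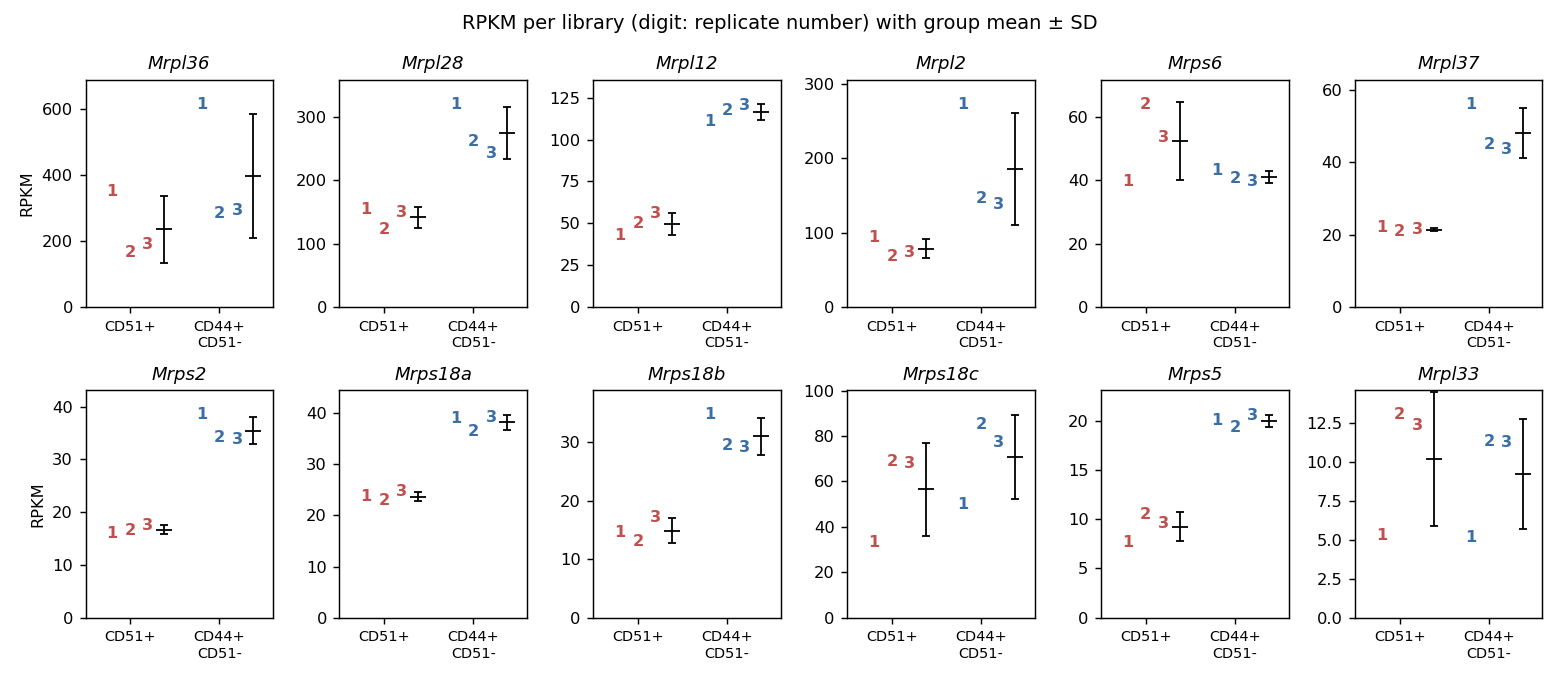
RPKM of 12 of the genes in each library (y axis, linear from 0, scaled per panel), CD51+ at left and CD44+CD51- at right, with digits for the replicate number and bars for the group mean ± SD. The groups are apart in Mrpl12, Mrpl2, Mrpl28, Mrpl37, Mrps2, Mrps5, Mrps18a and Mrps18b, and overlap in Mrpl36, Mrps6, Mrps18c and Mrpl33.

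The small subunit is made by 26 of the genes, of which 13 were lower and 0 higher, against the same backgrounds of 29.7% and 24.1%. Under the replicate block 24 fell and 0 rose (41.3% and 27.8%), and the median log2 change was -0.79. The 16 with a bacterial counterpart included 8 lower (median -0.74), and the 10 particular to mitochondria included 5 lower (median -0.83). With the block the counts were 14 of 16 and 10 of 10.

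Mrps2 and Mrps5, bacterial-type proteins of which the second lines the path by which messenger RNA enters, both fell. Mrps2 had 15.9, 16.6 and 17.5 RPKM in CD51+ libraries, against 38.4, 34.1 and 33.7 RPKM in CD44+CD51- libraries (log2 change -1.04, adjusted p = 0.000725). Mrps5 had 7.66, 10.5 and 9.57 RPKM in CD51+ libraries, against 20.04, 19.3 and 20.5 RPKM in CD44+CD51- libraries (log2 change -1.04, adjusted p = 0.00153). Both stayed called in every alternative tried.

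Mrps27, a protein built of pentatricopeptide repeats, an RNA-binding fold, had 19.2, 16.6 and 20.3 RPKM in CD51+ libraries, against 47.9, 35.4 and 37.8 RPKM in CD44+CD51- libraries (log2 change -1.06, adjusted p = 0.00192). Mrps22, mutated in human mitochondrial disease, had 10.004, 13.0 and 16.1 RPKM in CD51+ libraries, against 23.5, 27.4 and 28.1 RPKM in CD44+CD51- libraries (log2 change -0.98, adjusted p = 0.00487). Neither gene's groups overlapped. Mrps26, named after its values were seen, had a log2 change of -1.08 without passing the test (adjusted p = 0.0526), and passed with the block (0.00117). Its values were 28.8, 17.6 and 19.4 RPKM in CD51+ libraries, against 87.9, 34.0 and 33.6 RPKM in CD44+CD51- libraries, again with library 1 highest in both groups. Mrps16, among the most abundant small-subunit transcripts, averaged 148 ± 31.2 RPKM in CD51+ libraries and 220 ± 10.9 RPKM in CD44+CD51- libraries (log2 change -0.59, adjusted p = 0.0389). It was called in neither the median-of-ratios nor the quantile scaling, where its log2 changes were -0.40 and -0.41. It also lost its call without some single libraries. Mrpl42, Mrpl47, Mrps35, Mrps30 and Mrps25 lost their calls under median-of-ratios scaling as well, Mrps30 also under quantile normalization, and each in some other alternative.

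Mammals have 3 proteins related to bacterial S18, from Mrps18a, Mrps18b and Mrps18c, which occupy different places: the first in the large subunit and the others in the small. Mrps18a had 23.6, 22.8 and 24.6 RPKM in CD51+ libraries, against 38.9, 36.4 and 39.1 RPKM in CD44+CD51- libraries (log2 change -0.67, adjusted p = 0.00357). Mrps18b had 14.5, 13.0 and 17.1 RPKM in CD51+ libraries, against 34.7, 29.4 and 29.0 RPKM in CD44+CD51- libraries (log2 change -1.02, adjusted p = 0.00183). Both fell, with no overlap between groups. Mrps18c, at the place of the bacterial protein, had 32.9, 68.8 and 68.1 RPKM in CD51+ libraries, against 49.9, 85.2 and 77.3 RPKM in CD44+CD51- libraries. Its groups overlapped, with a log2 change of -0.36 and an adjusted p of 0.394, or 0.0406 with the block. The call with the block was lost under median-of-ratios scaling with the block (adjusted p = 0.157), and only 2 of the 20 alternatives called the gene. No test was made of the differences between the 3 genes.

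Mrps36 bears the name of a small-subunit protein, but its product is now known as a subunit of the 2-oxoglutarate dehydrogenase complex of the citric acid cycle. It had 13.8, 23.5 and 25.8 RPKM in CD51+ libraries, against 27.1, 35.1 and 35.1 RPKM in CD44+CD51- libraries. The groups did not overlap, and the log2 change of -0.64 was close to the median of the true ribosomal genes (adjusted p = 0.0666, or 0.00446 with the block).

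The 5 genes below were not called with or without the block, namely Mrps6, Mrpl33, Mrps21, Mrpl48 and Mrpl43, of which only Mrpl48 had been named by the rule. Mrps6, a bacterial-type small-subunit protein, had 39.6, 64.1 and 53.6 RPKM in CD51+ libraries, against 43.1, 40.5 and 39.7 RPKM in CD44+CD51- libraries. CD51+ libraries 2 and 3 were above every CD44+CD51- library, while CD51+ library 1 was about level with the lowest of them. At a log2 change of 0.32 ± 0.19, the adjusted p was 0.196, or 0.118 with the block. It passed the test under median-of-ratios scaling (log2 change 0.50, adjusted p = 0.0419) and in the libraries numbered 2 and 3 alone (0.54, adjusted p = 0.0151). With equal summed RPKM its log2 change was 0.01. Over the 20 alternatives its adjusted p ran from 0.0151 to 0.976.

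Mrps6 shares 305 exon bases with Gm49711 and 159 with Slc5a3, an inositol transporter gene, both protein-coding and on the same strand. No level was available for Gm49711. Slc5a3 had 0.571, 3.64 and 2.49 RPKM in CD51+ libraries, against 0.260, 0.695 and 0.583 RPKM in CD44+CD51- libraries. Its order over the CD51+ libraries was that of Mrps6, while over the CD44+CD51- libraries it was not, as library 1 was lowest in Slc5a3 and highest in Mrps6. Whether shared reads add to the level of Mrps6 was not tested.

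Mrpl33, a small bacterial-type protein, had 5.26, 13.0 and 12.3 RPKM in CD51+ libraries, against 5.15, 11.3 and 11.2 RPKM in CD44+CD51- libraries. Its libraries grouped by number rather than by sort, with both libraries numbered 1 near 5 RPKM, and the log2 change was 0.11 ± 0.40 (adjusted p = 0.826). It was the only gene of the 76 higher in CD51+ in all 3 same-numbered pairs, where the background is 32.2%. Mrps21 had 56.2, 118 and 108 RPKM in CD51+ libraries, against 67.1, 120 and 129 RPKM in CD44+CD51- libraries (log2 change -0.18, adjusted p = 0.695). The direction of both genes changed between scalings: Mrpl33 was at -0.17 with equal summed RPKM, and Mrps21 at 0.01 under median-of-ratios and quantile scaling.

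Mrpl48, of the central protuberance, was the least abundant of the 76 per length. It had 5.97, 7.54 and 7.97 RPKM in CD51+ libraries, against 7.49, 9.31 and 9.58 RPKM in CD44+CD51- libraries (log2 change -0.26, adjusted p = 0.222). Mrpl48 shares 708 exon bases with Rab6a on the opposite strand, which was higher in CD51+ cells (log2 change 0.41, adjusted p = 0.0362, and 0.10 with adjusted p = 0.486 at equal summed RPKM; the call was also lost without CD51+ replicate 2 or 3 and without CD44+CD51- replicate 2 or 3). Mrpl43 averaged 77.2 ± 17.0 RPKM in CD51+ libraries and 97.8 ± 35.4 RPKM in CD44+CD51- libraries (log2 change -0.30, adjusted p = 0.382). It shares 507 exon bases with the gene of the mitochondrial DNA helicase on the opposite strand.

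In all, 31 of the 76 genes share exon bases with another annotated gene, 22 of them with a protein-coding one. The library kit does not keep strand in its usual use, so reads in such stretches may have been counted for either gene or for neither. Mrps11 and Mrpl46 lie head to head and share 173 exon bases, and both fell (log2 changes -0.82 and -0.86, adjusted p 0.00523 and 0.00670). The largest part shared with a single partner was in Mrps25, 69.8% of whose exon bases lie in Nr2c2. Mrps34 followed, with 63.4% in Mapk8ip3 and 37.0% in Nme3. Nr2c2 had 2.56, 2.89 and 2.67 RPKM in CD51+ libraries, against 4.19, 3.95 and 3.53 RPKM in CD44+CD51- libraries, while Mrps25 averaged 7.69 ± 0.170 RPKM in CD51+ libraries and 14.8 ± 4.67 RPKM in CD44+CD51- libraries.

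The difference was present in each pair of same-numbered libraries. CD51+ was below CD44+CD51- in 75 genes in the libraries numbered 1, and in 74 genes in those numbered 2 and in those numbered 3. The median difference of the 76 genes was -0.93, -0.68 and -0.56 in the 3 pairs, where that of all genes tested was -0.33, -0.22 and -0.12. The pair with the largest difference over all genes was thus also the one with the largest in the 76. CD51+ was lower in all 3 pairs in 74 genes, where the background is 50.9%. In the libraries numbered 2 and 3 alone, 66 of the 76 were lower and 1, Mrps6, higher by limma, where the background is 34.8% lower and 24.9% higher.

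**Figure D3:**
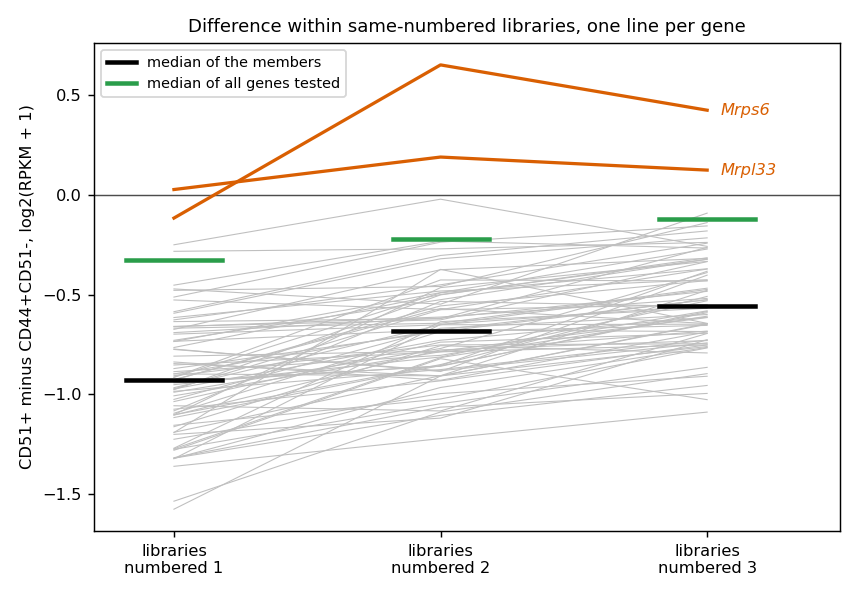
Difference in log2(RPKM + 1), CD51+ minus CD44+CD51-, within each pair of same-numbered libraries (x axis), with a line per gene. Black bars are medians of the 76 genes (-0.93, -0.68, -0.56) and green bars those of all genes tested, and Mrps6 and Mrpl33 are drawn in orange.

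The libraries numbered 1 deviated from the others by large amounts that were shared between the groups. For each gene, the deviation was taken as the log2 value of library 1 minus the mean of libraries 2 and 3. Over the 76 genes it correlated between the groups at r = 0.943, where r was 0.619 over all genes tested. This is a description over genes of the same 6 libraries, not a test. Library 1 was lower in both groups in 50 genes, higher in both in 16, and opposite in 10. It was lower by more than 0.5 in both groups in 11 genes, Mrpl33, Mrps21, Mrps18c and Mrps28 among them. In 7 genes, Mrpl4, Mrpl36, Mrps26, Mrps7, Mrps24, Mrps30 and Mrpl43, it was higher by more than 0.5 in both.

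Mrpl4, which lines the exit tunnel and was named after its values were seen, shows the pattern. It had 171, 76.5 and 82.5 RPKM in CD51+ libraries, against 335, 121 and 115 RPKM in CD44+CD51- libraries. CD51+ library 1 was above CD44+CD51- libraries 2 and 3, although below its own counterpart. At a log2 change of -0.70 ± 0.49, the adjusted p was 0.260, and 0.00378 with the block. The deviation of library 1 correlated only weakly with the GC content of the gene's longest protein-coding transcript (r = 0.273 in CD51+ and 0.254 in CD44+CD51-, 76 genes). With exon length, merged over isoforms, r was 0.137 and 0.0890.

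**Figure D4:**
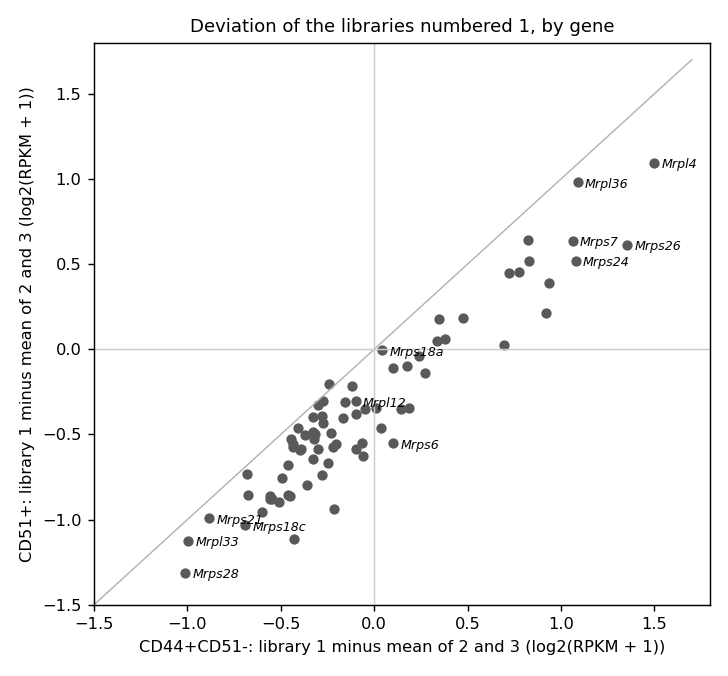
Deviation of library 1 from the mean of libraries 2 and 3 on the log2(RPKM + 1) scale, CD51+ on the y axis and CD44+CD51- on the x axis, with a point per gene and the line of equal deviation. The points follow a rising band (r = 0.943 over 76 genes), from Mrps28 at the low end to Mrpl4 at the high end.

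Although most of the products occupy a single place in the ribosome, the mean RPKM of the genes spanned a 39.8-fold range, 7.98 in Mrpl48 to 317 in Mrpl36, with a median of 43.3. The order of the genes was nearly the same in both groups (r = 0.977 over 76 genes on a log scale, a description over genes of the same libraries). Beside Mrpl48, the least abundant were Mrps10, Mrps9, Mrpl47 and Mrps35. Mrps10, of the small-subunit head, had 5.13, 5.77 and 6.40 RPKM in CD51+ libraries, against 9.50, 11.5 and 11.4 RPKM in CD44+CD51- libraries (log2 change -0.80, adjusted p = 0.00436). Mrps9, whose bacterial counterpart reaches toward the bound tRNA, fell as well (log2 change -0.80, adjusted p = 0.0118), as did Mrpl47 at the tunnel exit (-0.84, 0.0353) and Mrps35 (-0.83, 0.0276). Over the 5 least abundant genes, neighbours in this order differed by less than the spread between libraries.

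The level was related to length. Annotated exon length, merged over isoforms, had a median of 6169.5 bases in the 10 genes of lowest mean RPKM and 1389 bases in the 10 of highest. On log scales, r was -0.682 over the 76 genes and -0.153 over 11347 genes tested. RPKM divides by a length, so long annotated exons that are little used lower it, and their part was not tested. The ratio of summed small-subunit to summed large-subunit RPKM was 0.378, 0.435 and 0.421 in CD51+ libraries, against 0.392, 0.384 and 0.392 in CD44+CD51- libraries. These ranges overlap.

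**Figure D5:**
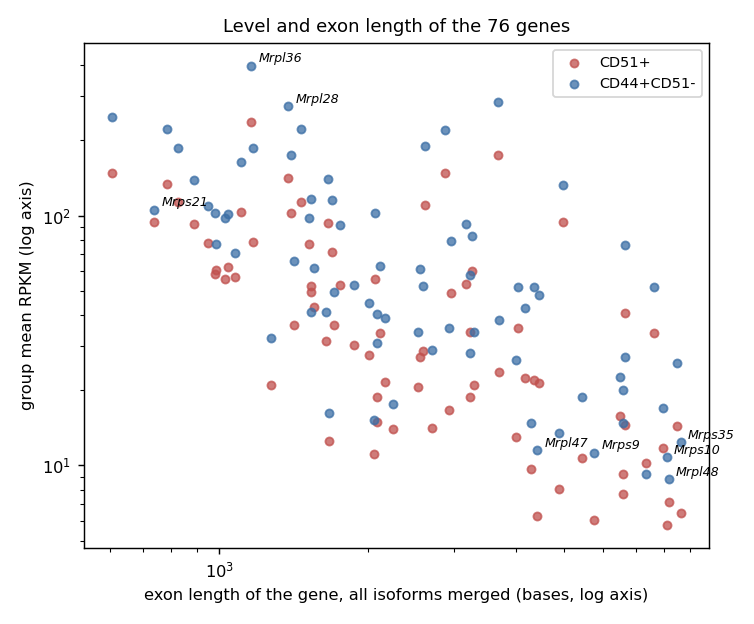
Mean RPKM of each of the 76 genes (y axis, log scale) by its exon length in bases (x axis, log scale), with CD51+ in red and CD44+CD51- in blue. Long genes such as Mrpl48 and Mrps10 lie lowest, and r was -0.682 for the mean over both groups.

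Of 6 mitochondrial ribosomal proteins that go by other symbols, all tested, 3 were lower and 0 higher (unadjusted, 3 and 0), with a median log2 change of -0.60. The backgrounds are 29.7% lower and 24.1% higher. With the block the counts were again 3 and 0, against 41.3% and 27.8%. Ptcd3, a pentatricopeptide repeat protein of the small subunit, had 10.7, 11.9 and 15.5 RPKM in CD51+ libraries, against 30.6, 29.9 and 33.0 RPKM in CD44+CD51- libraries (log2 change -1.24, adjusted p = 0.00101). Gadd45gip1, a large-subunit protein at the tunnel exit, fell too (log2 change -1.119, adjusted p = 0.00386). The remaining call was Dap3, the GTP-binding protein of the small subunit (log2 change -0.90, adjusted p = 0.00171, chosen after its values were seen). Chchd1, Aurkaip1 and Ict1 did not pass, with log2 changes of -0.30, -0.16 and -0.23.

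The factors that build and run the ribosome showed the same direction. The counts below stand beside the backgrounds of 29.7% lower and 24.1% higher, or 41.3% and 27.8% with the block. Of 23 tested genes of ribosome assembly and ribosomal RNA modification, 16 were lower and 0 higher (19 lower with the block), with a median of -0.67. Wbscr16, an assembly factor, and Fastkd2, which binds the large ribosomal RNA, fell most (log2 changes -1.38 and -1.24, adjusted p 0.000707 and 0.000644). Lars2, the leucyl-tRNA synthetase of mitochondria, was the only positive value of that list, at 0.44 (adjusted p = 0.302). It was listed at 1600, 827 and 1096 RPKM in CD51+ libraries, against 1170, 701 and 701 RPKM in CD44+CD51- libraries. That is far above every other gene of the list, and the source of this level was not tested.

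Of 13 tested translation factors, 9 were lower and 0 higher (11 lower with the block), with a median of -0.83. Tufm, the elongation factor that brings aminoacyl-tRNA to the ribosome, had 65.5, 36.9 and 45.4 RPKM in CD51+ libraries, against 158, 103 and 102 RPKM in CD44+CD51- libraries. The groups did not overlap (log2 change -1.29, adjusted p = 0.00635). Gfm1, the factor that moves the ribosome along, was at -1.07 (adjusted p = 0.00658).

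Among 16 tested genes of mitochondrial DNA upkeep and expression, 10 were lower and 0 higher (15 lower with the block), with a median of -0.73. Elac2, which trims the ends of mitochondrial tRNA, and Peo1, the DNA helicase Twinkle, fell most (log2 changes -1.41 and -1.22, adjusted p 0.000413 and 0.000763). Among 8 tested regulators of mitochondrial genes, 6 were lower and 0 higher (7 lower with the block), with a median of -0.55. Myc had 109, 93.7 and 120 RPKM in CD51+ libraries, against 361, 230 and 263 RPKM in CD44+CD51- libraries (log2 change -1.38, adjusted p = 0.00192). Pprc1, a coactivator related to PGC-1 alpha, fell as much (-1.39, adjusted p = 0.00148). The unadjusted counts of higher genes were 0 in all 4 of these lists. Nrf1 and Gabpa, whose motifs were searched above, stood at 8.83 ± 0.542 and 12.5 ± 1.65 RPKM in CD51+ libraries, against 13.1 ± 1.45 and 19.1 ± 0.956 RPKM in CD44+CD51- libraries.

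The RNA made inside mitochondria did not show the difference by this test. Of 15 mitochondrial transcripts, 9 were tested and 0 were called in either direction by limma, with 0 at an unadjusted p under 0.05. Their median log2 change was -0.04. With the block 1, mt-Nd1, was lower (log2 change -0.81, adjusted p = 0.0226). The large ribosomal RNA, mt-Rnr2, had 2234, 5399 and 5567 RPKM in CD51+ libraries, against 2527, 4833 and 4540 RPKM in CD44+CD51- libraries. Libraries grouped by number, with both numbered 1 lowest (log2 change 0.09 ± 0.50, adjusted p = 0.886). Under quantile normalization mt-Rnr2 was at -1.05, not called without the block (adjusted p = 0.0783) and called lower with it (adjusted p = 0.00787). Standard errors over the 9 were 0.32 to 0.54 without the block, so a missed call does not show equal levels.

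Stromal, myeloid, early B and cell cycle markers differed between the groups, while erythroid markers were called in both directions and no endothelial marker was called. The marker counts stand beside the backgrounds of 29.7% lower and 24.1% higher, or 41.3% and 27.8% with the block. All 10 stromal markers were higher in CD51+ cells, summing to 15273 to 20676 RPKM, against 7.24 to 43.8 RPKM in CD44+CD51- libraries. All 10 myeloid markers were higher as well, with sums of 67447 to 74612 RPKM in CD51+ libraries, against 4679 to 21956 RPKM in CD44+CD51- libraries. Of 8 tested early B cell markers of 10, 7 were lower and 0 higher (0 unadjusted, 7 and 1 with the block), with sums of 82.7 to 165 RPKM in CD51+ libraries, against 312 to 969 RPKM in CD44+CD51- libraries. Of 12 erythroid markers, 5 were higher and 6 lower, with sums of 10348 to 15947 RPKM in CD51+ libraries, against 9830 to 14698 RPKM in CD44+CD51- libraries. Of 6 endothelial markers 2 were tested and 0 called, with sums of 4.61 to 6.77 RPKM in CD51+ libraries, against 1.69 to 8.16 RPKM in CD44+CD51- libraries (unadjusted, 0).

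Of 18 genes of the cell cycle, 13 were lower and 0 higher (14 and 0 unadjusted, and 16 lower with the block), with sums of 1502 to 1860 RPKM in CD51+ libraries, against 2633 to 2992 RPKM in CD44+CD51- libraries. No marker of these lists was listed at 0 in all libraries of a group. The part of cell types and of division in the lower levels of the mitochondrial ribosomal genes was not tested. The proteins of the cytosolic ribosome, a list added after the data were seen, had a median log2 change of -0.73 over 81 genes tested. Of these, 31 were lower and 2 higher, where the backgrounds are 29.7% and 24.1%. With the block 74 were lower and 2 higher (41.3% and 27.8%).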

How the data were processed

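The table deposited by the authors holds RPKM per gene for 6 samples, 1 column each, and no other per-sample columns. Per the submitters' processing notes the build was GRCm38 and edgeR 3.16.5 was among the tools. The aligner, the counter, the annotation and any adjustment of library size are not given in the sources used here. Depth was estimated from the RPKM steps with GENCODE M21 lengths. Of values worth 20 reads or fewer, between 89.0% and 91.3% per library lay within 0.05 of a whole read. The recovered reads were not used for a count test.

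Genes with an RPKM of at least 1 in at least 3 samples were taken as log2(RPKM + 1), which understates the change of low genes. The groups were compared in R 4.3.3 with limma 3.58.1 (intensity trend). P-values are two-sided, were adjusted by Benjamini and Hochberg's method over the 11741 genes, and were called under 0.05. The script was tested on simulated data. Alternatives were other scalings, pseudocounts (0.1, 0.5), filters, variance models, the replicate block and leaving out libraries. Over these genes, deviations from the group mean correlated between same-numbered libraries at 0.619, 0.286 and 0.516. CD51+ library 2 correlated slightly more with CD44+CD51- library 3 (0.324), and CD51+ library 3 correlated with CD44+CD51- library 2 at 0.198, so numbers 2 and 3 are less clearly parted than 1. As every same-numbered pair was over 0.1, the numbers were taken to pair the samples, from the data and not from a statement in the labels. The crossed pairs of numbers 2 and 3 were over 0.1 as well, so this limit cannot tell their pairing by number from the crossed one.

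The genes and the other lists were chosen with earlier results of these data known. Named in the text were the 10 called genes of largest change in each direction, the 5 of highest and of lowest mean RPKM, the Mrps18 genes, Mrps36, and at most 2 called genes of each other list per direction. Others were named after their values were seen, among them Mrps6, Mrpl33, Mrps21, Mrps26, Mrpl4, Mrpl43, Mrps11, Mrpl46, Mrps25, Mrps34, Mrps30, Mrps7, Mrps24, Mrps28, all overlapping partners, and genes of the lists that were not called. Gene coordinates and exon lengths are from GENCODE M21 (GRCm38), and promoters from RefSeq (GRCm38.p6). A count of 0 calls comes from limma.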

Additional observations from a re-analysis of the deposited data

How the results depend on the processing

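Of the 76 genes, 45 were lower in CD51+ cells as reported, 71 with the replicate block, 74 with equal summed RPKM and the block, and 69 with quantile normalization and the block. Leaving out 1 library gave 29 to 47, with 29 without CD51+ replicate 2 and 29 without CD44+CD51- replicate 3, where fewer samples were fitted. A gene was called higher under median-of-ratios scaling (1) and quantile normalization (1), each also with the block (1 and 1), in libraries 2 and 3 alone (1), and in 0 to 1 genes when a library was left out. It was Mrps6 each time. In all 20 alternatives 26 genes were called lower. The share of all genes called in every alternative was not computed, so this count has no background. Over all genes, 3484 were lower and 2825 higher as reported. The count lower was 5471 with equal summed RPKM, 6667 with that and the block, and 5904 with quantile normalization and the block. With a filter at RPKM 5, where fewer genes were tested, 2968 were lower (37.4%) and 1613 higher (20.3%). The median of the 76 genes was -0.74, and -1.05 with equal summed RPKM, with or without the block. The median of all genes was -0.23 as reported, -0.50 with equal summed RPKM, -0.075 under median-of-ratios scaling and -0.35 under quantile normalization, the same with the block. It was -0.0102 with no filter and -0.37 with the filter at RPKM 5. Mrpl33, at 0.11 as reported, was at -0.17 with equal summed RPKM, with or without the block, and between -0.22 and 0.49 when a library was left out (-0.09 without CD51+ replicate 2, -0.06 without CD51+ replicate 3, -0.22 without CD44+CD51- replicate 1). Mrps21, at -0.18, was at 0.00906 under median-of-ratios scaling and 0.00534 under quantile normalization, with or without the block, and between -0.47 and 0.15 when a library was left out (0.15 without CD51+ replicate 1). None of the next 3 was called as reported. Aurkaip1, at -0.16, was at 0.0255 under median-of-ratios scaling and 0.0198 under quantile normalization, with or without the block, and between -0.30 and 0.0353 when a library was left out (0.0353 without CD51+ replicate 1). Chchd1, at -0.30, was between -0.51 and 0.0232 (0.0232 without CD51+ replicate 1). The mitochondrial ribosomal RNA mt-Rnr2, at 0.09, was at -0.23 with equal summed RPKM and -1.05 under quantile normalization, with or without the block, and between -0.20 and 0.52 when a library was left out (-0.11 without CD51+ replicate 2, -0.13 without CD51+ replicate 3, -0.20 without CD44+CD51- replicate 1). Under quantile normalization with the block, mt-Rnr2 was called lower by limma (adjusted p = 0.00787). The cause of these changes was not tested. Of the called genes named in the text whose alternatives were computed, 7 lost their call in some of them, with highest adjusted p-values of 0.116 (Mrpl42), 0.120 (Mrps16), 0.0957 (Mrpl47), 0.1004 (Mrps35), 0.144 (Mrps30), 0.0576 (Mrps25) and 0.486 (Rab6a, higher). The scalings with the block, and libraries 2 and 3 alone, were added after seeing the data. Limits are 3 libraries per group, a depth known only by estimate, an unknown scale of the deposited RPKM, sorted cells of mixed type, and reads shared by overlapping genes.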

Other observations

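Of the 15 mitochondrial transcripts, 6 were listed at or near 0 although cells that respire use them. mt-Atp8 and mt-Nd4l were listed at 0 in all 6 libraries. mt-Co2 was listed at 0 in all 3 CD51+ libraries, and at 0, 0.171 and 0 RPKM in CD44+CD51- libraries. mt-Atp6 was at 0, 0.0452 and 0 RPKM in CD51+ libraries, against 0 in all 3 CD44+CD51- libraries. These values are not read as expression.

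Several mitochondrial genes outside the ribosome carried the same excess of the libraries numbered 1 as Mrpl4. Malsu1, a ribosome assembly factor, had 32.6, 9.70 and 11.9 RPKM in CD51+ libraries, against 38.5, 11.2 and 13.4 RPKM in CD44+CD51- libraries. Polrmt, the mitochondrial RNA polymerase, had 15.2, 6.99 and 7.26 RPKM in CD51+ libraries, against 40.6, 15.7 and 15.9 RPKM in CD44+CD51- libraries. These genes were chosen after their values were seen, and no cause was tested.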
